A study of Mus musculus with 10 samples.

Results

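The 10 genes described here are *Lyve1*, *Stab1*, *Stab2*, *Cd44*, *Mrc1*, *Colec12*, *Clec14a*, *Scarb1*, *Msr1* and *Marco*. Apart from *Clec14a*, which encodes a C-type lectin-like protein of endothelial cells, they encode receptors that bind hyaluronan or take up altered proteins, lipoproteins and glycans. The word receptors covers all 10 below. The 10 genes were chosen by name, and each was found once among the 46517 Ensembl genes of the count tables. All 10 had at least 1 read in endothelial cells of mouse ear skin, and 8 of them passed the filter on low counts in each comparison between groups of cells or mice.

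Single dermal endothelial cells were sorted for Podoplanin and CD31 from mice 5 wk of age, and their transcripts were counted well by well. The mutant mice (Pik3caH1047R;Cdh5-CreERT2, Cre+; 5 mice on 7 plates) carry an oncogenic *Pik3ca* transgene that is switched on in endothelial cells by a tamoxifen-inducible Cre under the *Cdh5* promoter, and 4-OHT had been applied to their ears at 3 wk. Control 1 was an untreated C57BL/6J mouse, and control 2 was a Cre- animal of the Pik3caH1047R;Cdh5-CreERT2 strain treated with 4-OHT in the same way. A further Cre- mouse was not analysed here. The 2 controls thus differ in strain and in 4-OHT, the treated mice share 4-OHT whatever their genotype, the Cre acts in blood and lymphatic endothelium alike, and whether a given cell had recombined was not analysed here. The plates of mutants 1 to 4 come from one series of plate numbers, and those of mutant 5 and both controls from another, so series and genotype cannot be told apart for the first 4 mutants.

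Hyaluronan is a long sugar chain of the skin matrix that drains through lymphatic vessels and is removed from lymph and blood by endocytic receptors. LYVE-1 binds it on the surface of lymphatic endothelial cells (LECs), and stabilin-2 takes it up in liver sinusoids. The stabilins and the mannose receptor take up glycoproteins and other waste, a task best known from the sinusoidal endothelium of the liver. Scavenger receptors of blood endothelial cells (BECs) include the HDL receptor encoded by *Scarb1*, while *Msr1* and *Marco* are known as receptors of macrophages.

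Of 3456 wells, 3248 held a cell that passed the quality limits. A cell was called a LEC when its summed CPM (reads of a gene per 1000000 gene reads) of *Prox1*, *Flt4* and *Mmrn1* were at least 300 and above those of *Flt1*, *Emcn* and *Podxl*, and a BEC in the reverse case, which gave 1641 LECs, 1490 BECs and 117 cells of neither kind. None of the 6 gating genes is among the 10 receptors. LEC genes outside the gate summed to 3178–3966 CPM in LECs and to 248–852 CPM in BECs of each mouse, and BEC genes outside it to 5346–6969 CPM in BECs and 1252–1988 CPM in LECs, so each class held some of the other's markers. All libraries are labelled as LECs, although the design names both vessel types. Reads were summed per mouse and class, giving 55616045–194353210 reads for LECs and 38402388–99630824 for BECs, and each mouse counted as 1 replicate.

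Promoter sequences are shown for 4 receptors on which the comparisons turn: *Mrc1* and *Stab2*, which were both higher in LECs with *Ptx3*; *Stab1*, the relative of *Stab2* that was not; and *Clec14a*, which differed between mutant and control BECs. RefSeq promoters (GRCm38.p6) were matched for 7 of the 10 genes. The bases shown run 5′ to 3′ on the gene's strand and end directly before the first base of the gene. Capitals mark matches to AGGAAG, the core of ETS factor sites, or to TGCTGA, part of the MAF recognition element, on either strand.
Mrc1, chr2:14229164-14229391, plus strand: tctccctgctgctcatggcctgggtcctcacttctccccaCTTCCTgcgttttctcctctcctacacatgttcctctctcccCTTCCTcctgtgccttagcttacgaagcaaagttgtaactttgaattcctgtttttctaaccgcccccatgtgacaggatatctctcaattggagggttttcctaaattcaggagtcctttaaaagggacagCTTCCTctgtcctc
Stab2, chr10:87008026-87008192, minus strand: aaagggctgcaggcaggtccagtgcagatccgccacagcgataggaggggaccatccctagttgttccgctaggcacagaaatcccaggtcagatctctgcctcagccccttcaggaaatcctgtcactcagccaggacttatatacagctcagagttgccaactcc
Stab1, chr14:31168642-31168891, minus strand: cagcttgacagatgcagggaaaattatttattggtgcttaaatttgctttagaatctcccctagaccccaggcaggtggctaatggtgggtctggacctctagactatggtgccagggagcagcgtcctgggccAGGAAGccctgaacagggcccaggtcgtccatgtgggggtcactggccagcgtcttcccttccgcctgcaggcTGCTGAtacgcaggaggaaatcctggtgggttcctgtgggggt
Clec14a, chr12:58269291-58269508, minus strand: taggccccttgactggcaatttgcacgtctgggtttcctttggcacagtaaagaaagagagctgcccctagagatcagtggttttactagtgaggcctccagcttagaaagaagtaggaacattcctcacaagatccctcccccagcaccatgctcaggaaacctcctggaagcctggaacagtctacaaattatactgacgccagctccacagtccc
In the 250 bases before the RefSeq start, *Mrc1* held 3 matches to AGGAAG, all read as CTTCCT on the gene's strand and at 210, 168 and 36 bases before the start. *Stab2* held 1, at 40 bases before the RefSeq start and past the bases shown, *Stab1* held 1 AGGAAG and 1 TGCTGA, and *Clec14a* held none. AGGAAG was found in 29.5% and TGCTGA in 16.1% of 32851 promoters of the same length. Among the other receptors searched, *Cd44* held 3 and *Marco* 2 matches to AGGAAG. No match to TATAAA (12.4% of all promoters), TGTTTAC (a forkhead core, 3.17%) or TGANTCA (AP-1, 6.75%) was found in the 6 promoters of these receptors that were searched. These are matches of letters and say nothing of whether a factor binds.

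The first question was which receptors belong to which vessel type. The 5 receptors *Lyve1*, *Stab1*, *Stab2*, *Mrc1* and *Colec12* were higher in LECs, and *Scarb1* and *Clec14a* were higher in BECs. All 7 of these passed edgeR's quasi-likelihood test with Benjamini-Hochberg adjustment over 17586 genes, of which 26.4% passed (14.0% higher and 12.4% lower in LECs), and *Cd44* did not. Over all genes tested, 13.6% were higher and 11.5% lower in LECs in every mouse. Without overlap between LEC and BEC sums, 5.38% were higher and 5.64% lower in LECs. Per kilobase of counted exon, the median levels in LECs ran from *Lyve1* (806 CPM/kb) through *Stab1* (73.0), *Colec12* (29.4), *Mrc1* (14.0), *Clec14a* (7.82), *Scarb1* (5.60) and *Stab2* (2.89) to *Cd44* (2.30). The ranges over 7 mice of the first 4 did not overlap one another, whereas from *Mrc1* down each gene overlapped the next. In BECs the order was *Scarb1* (253 CPM/kb), *Clec14a* (161), *Stab1* (31.6), *Lyve1* (17.2), *Cd44* (6.43), *Colec12* (4.18), *Mrc1* (0.225) and *Stab2* (0.0185), and neighbours overlapped except *Scarb1* with *Clec14a*, *Clec14a* with *Stab1* and *Colec12* with *Mrc1*. The counted exon model of *Colec12* is 3322 bases against 8725 in GENCODE, which sets its level per kilobase.

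Among the hyaluronan receptors, *Lyve1* (chromosome 7, 110850607–110863239, minus strand) had the highest level. In LECs it stood at 2399 and 2236 CPM in controls 1 and 2 and at 1228, 2015, 2102, 1981 and 2562 CPM in mutants 1 to 5. In BECs it was at 89.6 and 25.3 CPM in the controls and 103, 37.9, 44.9, 27.2 and 138 CPM in the mutants. Every LEC sum lay above every BEC sum, and the difference was 5.21 on the log2 scale (SE 0.40; adjusted p = 2.01e-05, edgeR). A level of 500 CPM or more was reached by 1274 of 1641 LECs, and by 13 of 1174 mutant and 2 of 316 control BECs.

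*Stab1* (chromosome 14, 31139013–31168641, minus strand), encoding the scavenger receptor stabilin-1, was common to both vessel types. Its LEC levels were 918 and 1667 CPM in the controls and 686, 751, 744, 662 and 1096 CPM in the mutants. Its BEC levels were 235 and 372 CPM in the controls and 407, 302, 324.2, 324.9 and 538 CPM in the mutants. The LEC and BEC ranges did not overlap, with a log2 difference of 1.34 (SE 0.18; adjusted p = 0.000501, edgeR), the smallest of the 5 receptors that were higher in LECs. Reads were counted on exons, of which 1.09% overlap *Nt5dc2* on the opposite strand.

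*Stab2* (chromosome 10, 86841198–87008025, minus strand), which encodes the hyaluronan clearance receptor of liver sinusoids, was rare. LECs held 11.6 and 2.69 CPM in the controls and 25.3, 10.9, 33.4, 29.8 and 53.9 CPM in the mutants, and BECs held 3.67 CPM in mutant 1 and 0.0244–0.562 CPM in the other 6 mice. The level was higher in LECs in 7 of 7 mice (log2 difference 6.32, SE 0.74; adjusted p = 0.000230, edgeR), although control 2's LECs lay below the BECs of mutant 1. A level of 100 CPM was reached by 91 of 1283 mutant and 6 of 358 control LECs and by 0 of 1490 BECs, which allows a share of BECs of up to 0.256% in mutants and 0.949% in controls for counting error only. This is a limit that was set after the values were seen, as were the other limits on single cells used here. *Cd44* (chromosome 2, 102811141–102901665, minus strand), the widely expressed hyaluronan receptor, was the only tested receptor without a call between LECs and BECs. It was at 1.25 and 14.4 CPM in control LECs and 15.6, 20.7, 10.1, 40.4 and 59.4 CPM in mutant LECs, against 56.4 and 73.8 CPM in control BECs and 27.6, 43.5, 31.1, 59.1 and 34.3 CPM in mutant BECs (log2 difference -1.44, SE 0.62; adjusted p = 0.128, edgeR). It was lower in LECs than BECs in 6 of 7 mice, the exception being mutant 5, and DESeq2 called it (-1.47; adjusted p = 0.0108).

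*Mrc1* (chromosome 2, 14229392–14332057, plus strand), the mannose receptor whose promoter is printed above, was close to absent from BECs. LECs held 114 and 89.5 CPM in the controls and 89.0, 87.3, 78.2, 113 and 60.8 CPM in the mutants. BECs held 2.00 and 0.609 CPM in the controls and 1.43, 5.82, 1.19, 0.842 and 1.88 CPM in the mutants. The LEC range lay wholly above the BEC range (log2 difference 5.82, SE 0.43; adjusted p = 1.70e-05, edgeR). *Colec12* (chromosome 18, 9707595–9882644, plus strand), a membrane-bound collectin that acts as a scavenger receptor, had 151 and 87.0 CPM in control LECs and 94.1, 97.8, 117, 128 and 72.1 CPM in mutant LECs, against 7.73–38.9 CPM in the BECs of 7 mice. It was higher in LECs without overlap by 2.73 on the log2 scale (SE 0.27; adjusted p = 8.50e-05, edgeR).

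*Scarb1* and *Clec14a* marked BECs. *Scarb1* (chromosome 5, 125277087–125341094, minus strand), the HDL receptor, stood at 2446 and 2318 CPM in control BECs and 2151, 1759, 2326, 2030.1 and 1996 CPM in mutant BECs, whereas LECs held 117 and 47.6 CPM in the controls and 30.4–71.3 CPM in the mutants. No LEC sum reached a BEC sum, and the log2 difference was -5.34 (SE 0.20; adjusted p = 9.96e-07, edgeR). *Clec14a* (chromosome 12, 58264720–58269290, minus strand), a C-type lectin-like protein of endothelial cells, was at 23.8–57.1 CPM in LECs and 259–881 CPM in BECs, again without overlap (log2 difference -4.12, SE 0.32; adjusted p = 2.13e-05, edgeR). In all 17 alternative analyses the 7 calls were kept.

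The macrophage receptors *Msr1* (chromosome 8, 39581685–39642673, minus strand) and *Marco* (chromosome 1, 120474538–120505024, minus strand) were at or near 0. *Msr1* had 23, 1, 2 and 28 reads in the LECs of control 1, control 2, mutant 1 and mutant 5, 102 and 4 reads in the BECs of control 1 and mutant 4, and none in the other sums. *Marco* had 3 reads, all in LECs of control 2. *Marco* failed the filter on low counts in every comparison, and *Msr1* passed it only in the 2 comparisons of the genotype effect between cell classes.

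**Figure D1:**
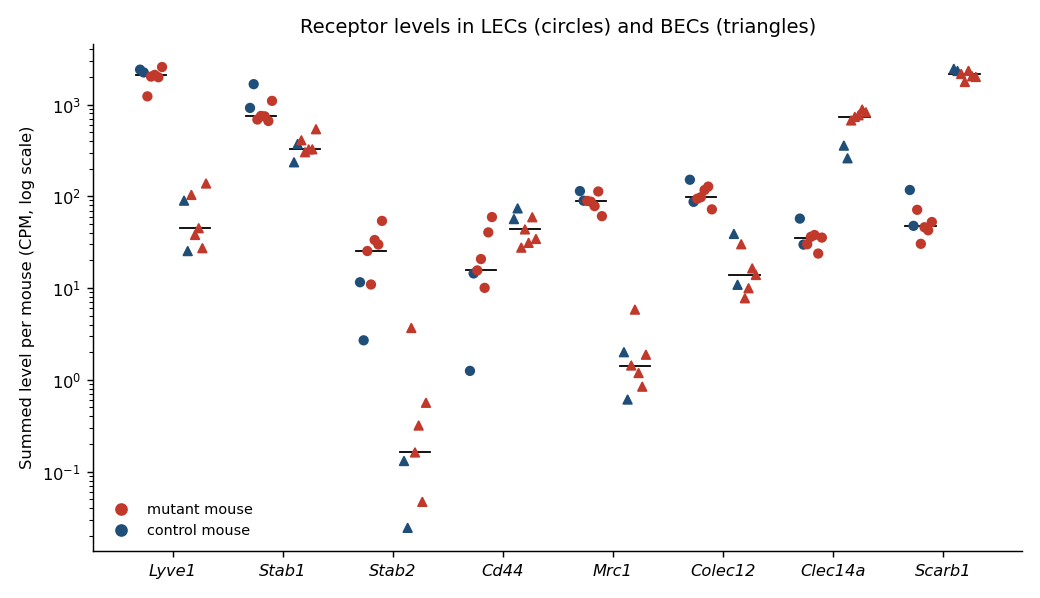
Summed level per mouse (CPM, log scale) of the 8 receptors that passed the count filter, in LECs (circles) and BECs (triangles); red points are the 5 mutant mice, blue points the 2 control mice, and bars the median of 7 mice. *Lyve1*, *Stab1*, *Mrc1* and *Colec12* lie higher in LECs and *Scarb1* and *Clec14a* lower, each without overlap, while *Stab2* and *Cd44* overlap. Of all genes tested, 5.38% lay higher and 5.64% lower in LECs without overlap.

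Genes of the same pathways were counted against the 26.4% of all genes called between LECs and BECs (14.0% higher and 12.4% lower), with no test of a list against that share. Of 17 tested genes of hyaluronan synthesis and turnover, 7 were higher and 4 lower in LECs, with a median log2 difference of 0.98 beside 0.025 over all genes tested. The 3 largest differences were those of *Hapln3*, a link protein, at 0.0170–0.216 CPM in LECs and 2.13–10.4 CPM in BECs (log2 difference -6.34; adjusted p = 0.000373, edgeR), *Hapln2*, another link protein (6.27; adjusted p = 0.00979), and *Vcan*, a proteoglycan that binds hyaluronan (-6.16; adjusted p = 0.00296). *Vcan* differed so in mutants, at 0.272–1.20 CPM in LECs and 47.2–79.5 CPM in BECs, whereas in controls LECs held 0.0490 and 8.91 CPM and BECs 4.02 and 4.09 CPM, which overlap. Of 18 other scavenger and endocytic receptors, 5 were higher and 5 lower in LECs, led by *Cd36*, the fatty acid and thrombospondin receptor, with 794–2413 CPM in BECs and 14.1–99.8 CPM in LECs (-5.35, SE 0.29; adjusted p = 3.84e-06, edgeR). *Scara3* was lower in LECs as well (-3.82) and *Cd68* higher (3.37). The values of *Cd68* stood apart in mutants (11.9–32.9 CPM in LECs, 0.635–1.67 CPM in BECs) and overlapped in controls, with means of 0.559 and 0.611 CPM. Of 8 tested genes in the list of vascular C-type lectins and collectins, which also holds *Cd34*, no lectin, 1 was higher and 5 were lower. Among the lower ones were *Cd93* (-4.02, SE 0.18; adjusted p = 1.62e-06, edgeR) and *Cd248* (-3.62), relatives of *Clec14a*, and *Cd34* (-2.62). *Thbd*, also in this list, went the other way in mutants, with means of 706 CPM in LECs and 382 CPM in BECs. In controls its means were 197 CPM in LECs and 484 CPM in BECs. Of 7 tested genes found with these receptors in liver sinusoidal endothelium, 6 were higher in LECs and none lower, a list that itself holds *Lyve1*, *Stab1*, *Stab2* and *Mrc1*.

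Next, LECs with at least 100 CPM of *Ptx3*, which encodes the secreted pattern recognition molecule pentraxin 3 and can organise hyaluronan-rich matrix, were compared with the other LECs of the same mouse. There were 544 such cells and 1097 others. They made up 6.56% and 25.1% of LECs in controls 1 and 2 and 33.7, 33.2, 34.7, 41.8 and 44.1% in mutants 1 to 5, so that control 1 contributed 12 cells only. The mutant mean was 21.6 percentage points above the control mean (two-sided exact permutation test, p = 0.0476, the smallest value that 21 splits of 7 mice allow). Median depth was 390389 reads per cell in *Ptx3*-high and 311634 in other LECs.

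Of the 8 tested receptors, *Mrc1*, *Stab2* and *Lyve1* were higher in *Ptx3*-high LECs, 3 in all, and none was lower. Among 15744 genes, 2.74% passed in either direction, 1.17% higher and 1.57% lower. A level higher in every mouse was seen for 3.28% of these genes, and a lower one for 5.48%. *Mrc1* was at 351 and 182 CPM in the *Ptx3*-high LECs of controls 1 and 2 and at 149.7, 173, 127, 177 and 88.0 CPM in those of mutants 1 to 5. In the other LECs it was at 95.2 and 54.6 CPM in the controls and 52.6, 41.4, 47.8, 51.6 and 35.0 CPM in the mutants. The level was higher in 7 of 7 mice, with ratios from 2.51 to 4.18, and the log2 difference was 1.70 (SE 0.12; adjusted p = 0.00161, edgeR). All 20 alternative analyses called it.

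*Stab2* had the larger difference and the wider spread. In *Ptx3*-high LECs it was at 134 and 9.62 CPM in the controls and 60.9, 28.3, 76.9, 56.3 and 73.0 CPM in the mutants, against 1.87 and 0.0676 CPM and 3.92, 1.60, 6.32, 4.43 and 36.0 CPM in the other LECs. The value of control 2's other LECs rests on 3 reads. Few *Ptx3*-high LECs reached 100 CPM of *Stab2*: 4 of 12 in control 1, 1 of 44 in control 2 and 8.06–18.5% in the mutants. The level was higher in 7 of 7 mice, most weakly in mutant 5, whose other LECs held more than any other mouse's (log2 difference 4.15, SE 0.67; adjusted p = 0.0136, edgeR). Without mutant 1 the adjusted p was 0.0521 at a log2 difference of 4.20.

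*Lyve1* moved least. It was at 3184 and 2865 CPM in control and 1709, 2330.2, 2439, 1994 and 2832 CPM in mutant *Ptx3*-high LECs, and at 2337 and 1998 CPM in control and 938, 1846, 1893, 1969.6 and 2308 CPM in mutant other LECs. Again 7 of 7 mice had more in the *Ptx3*-high cells, by as little as 1.01 times in mutant 4 (log2 difference 0.44, SE 0.09; adjusted p = 0.0368, edgeR). The call was lost without any 1 of 6 mice (adjusted p 0.0522–0.0794), with equal cell numbers (0.120), without the mouse as a block (0.418) and with a gate that asked for one marker sum at 10 times the other (log2 difference 0.15; 0.576), so that 11 of 20 alternatives kept it.

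**Figure D2:**
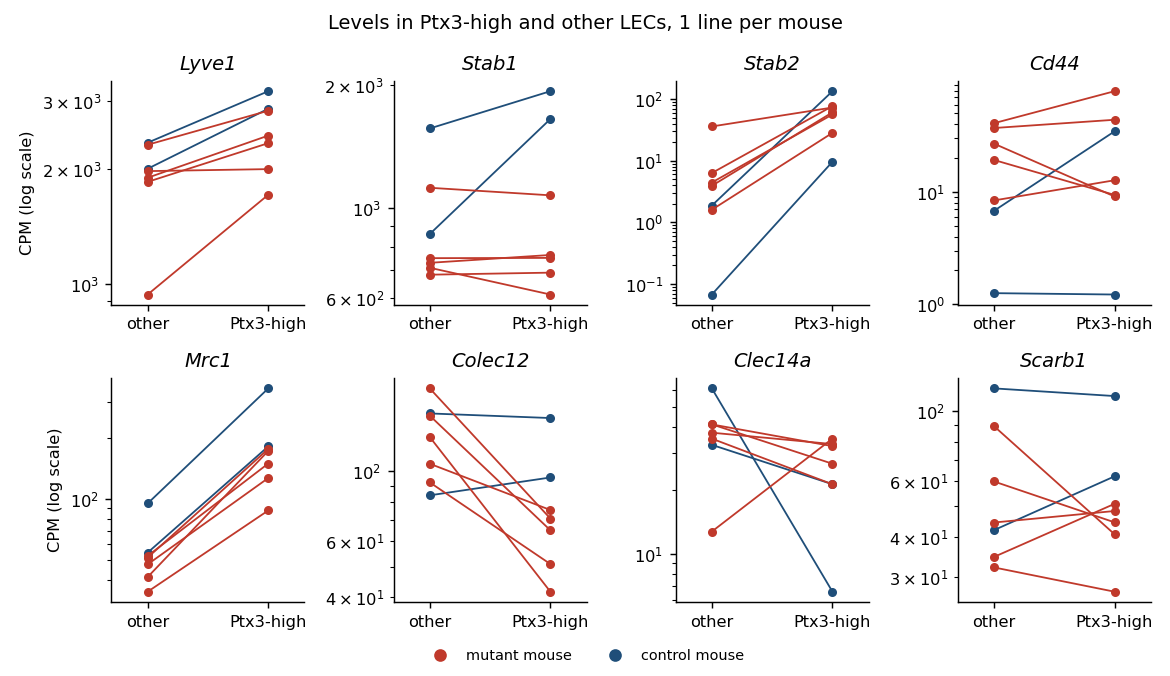
Summed level (CPM, log scale) in other and *Ptx3*-high LECs, 1 line per mouse, red for 5 mutants and blue for 2 controls; each panel has its own axis. The lines of *Mrc1*, *Stab2* and *Lyve1* run upwards in 7 of 7 mice and those of *Colec12* downwards in 6 of 7. Of all genes tested, 3.28% ran upwards in every mouse.

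*Colec12* ran the other way without passing the test. It was at 147 and 95.4 CPM in control and 75.3, 41.6, 65.0, 70.8 and 50.9 CPM in mutant *Ptx3*-high LECs, and at 152 and 83.8 CPM in control and 105, 128, 149, 182 and 92.1 CPM in mutant other LECs (log2 difference -0.74, SE 0.24; adjusted p = 0.156, edgeR). It was lower in 6 of 7 mice, all 5 mutants among them, and DESeq2 called it (-0.71; adjusted p = 0.0487). *Stab1* differed by 0.18 (95% interval -0.13 to 0.48), *Cd44* by 0.24 (SE 0.47), *Scarb1* by -0.059 (-0.55 to 0.43) and *Clec14a* by -0.53 (-1.52 to 0.46) on the log2 scale, none of them called.

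Across 4 bands of *Ptx3* the 5 mutants gave the following means. *Mrc1* was at 20.6 ± 18.2 CPM (SD, n = 5) in LECs without a *Ptx3* read, 51.8 ± 11.5 below 100 CPM of *Ptx3*, 113 ± 60.7 from 100 to under 500 CPM and 168 ± 37.8 at 500 CPM or more. *Stab2* was at 0.817 ± 0.557, 12.1 ± 14.4, 49.0 ± 36.7 and 70.3 ± 27.0 CPM in the same bands. *Colec12* was at 131 ± 55.1, 126 ± 31.1, 62.5 ± 29.6 and 59.0 ± 8.22 CPM. Thus the mutant means of *Mrc1* and *Stab2* were higher in each further band, and those of *Colec12* were split at the limit of 100 CPM. The mutant means of *Stab1* lay between 749.7 and 809 CPM. In controls *Stab1* was not as even: it was at 797, 972 and 1702 CPM in the first 3 bands of control 1, the last of them 8 cells, and at 1598, 1537, 1497 and 2569 CPM in the 4 bands of control 2. At the last step *Stab2* fell in mutant 1 (71.3 to 53.2 CPM) and mutant 3 (100 to 61.8 CPM), and *Mrc1* in mutant 2 (186 to 162 CPM). All other steps of these genes rose in mutants. The band without a *Ptx3* read held 13 cells in mutant 1 and 12 in mutant 5. *Mrc1* rose at each step in both controls. *Stab2* was at 2.72, 0.375 and 196 CPM in control 1, and at 0.0478, 0.0852, 0 and 23.6 CPM in control 2. The spread between mice exceeded many of the steps between neighbouring bands, and no test was made across them.

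**Figure D3:**
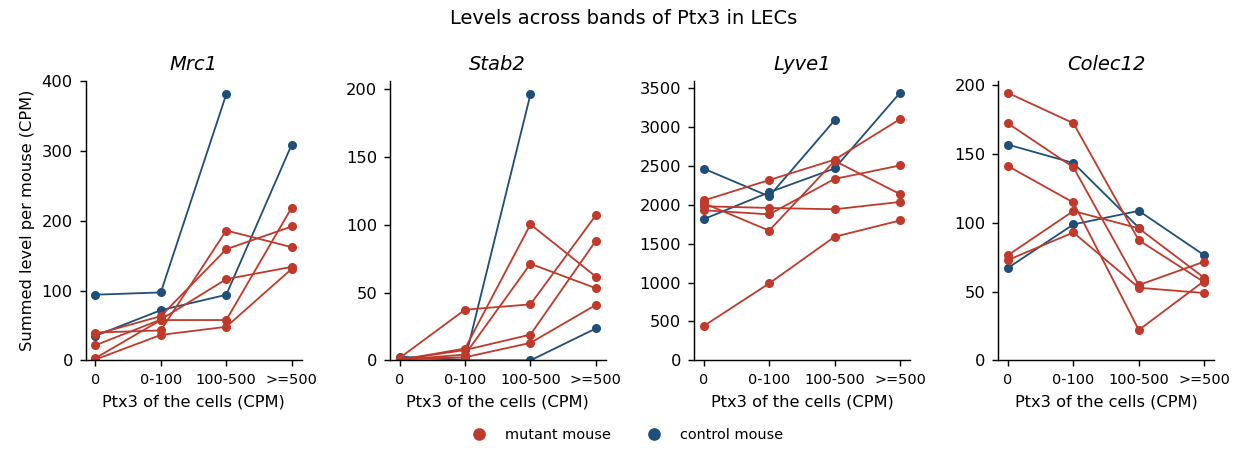
Summed level (CPM) of 4 receptors in LECs grouped by their own *Ptx3* level (0, above 0 to under 100, 100 to under 500, at least 500 CPM), 1 line per mouse; a band with under 5 cells in a mouse has no point, which leaves out control 1 at 500 CPM or more. In mutants the mean of *Mrc1* goes from 20.6 to 168 CPM and that of *Colec12* from 131 to 59.0 CPM.

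Macrophages express several of these receptors, so their markers were read in the same sums. The 14 macrophage genes summed to 29.9–140 CPM in mutant and 41.4–57.1 CPM in control *Ptx3*-high LECs, and to 17.0–64.0 and 25.6–66.7 CPM in the other LECs. Within the list, *Ptprc* (CD45), which the sort excluded, was at 0–0.244 CPM in *Ptx3*-high LECs and *Adgre1* at 0–3.71 CPM, while *Cd68* (15.8–47.6 CPM) and *Cd14* (2.43–37.3 CPM) had the highest maxima in mutants. In controls 5 of the 14 genes had no read in *Ptx3*-high LECs. The part of macrophage RNA in the 3 differences was not tested on its own, but without the cells that carried 300 CPM or more of 13 defining markers of other cell types *Mrc1* differed by 1.64 (adjusted p = 0.00491) and *Stab2* by 4.25 (0.0231), and *Lyve1* kept its call at a log2 difference of 0.44 (adjusted p = 0.0453, edgeR).

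In the related lists, *Itih2*, a heavy chain of the inter-alpha-inhibitor that is attached to hyaluronan, was lower in *Ptx3*-high LECs, at 0.0594–0.515 CPM against 6.13–25.4 CPM in other LECs (log2 difference -6.01, SE 0.59; adjusted p = 0.00268, edgeR). *Hyal1*, a lysosomal hyaluronidase, was lower too, at 48.3 ± 8.41 against 119 ± 20.0 CPM in mutants (SD, n = 5) and at 95.8 against 135 CPM in the means of 2 controls (-1.03, SE 0.20; adjusted p = 0.0264). These were the 2 called genes of 15 tested in the hyaluronan list. *Cd93* was the 1 called gene of 8 tested in the lectin list (-2.47, SE 0.32; adjusted p = 0.00545). Of 16 other scavenger receptors edgeR called 0, with 5 at an unadjusted p under 0.05 and 5 called by DESeq2, and in the sinusoidal list of 6 tested genes the 3 calls were *Stab2*, *Mrc1* and *Lyve1* themselves.

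The next comparison asked what the mutation changed. In LECs as a whole 0 of 8 receptors passed edgeR's test between 5 mutant and 2 control mice, where 2.76% of 19751 genes did, 1.96% higher and 0.8% lower. At an unadjusted p under 0.05 there were 2, *Stab1* and *Stab2*, and DESeq2 called 1, *Stab2* (log2 difference 2.09; adjusted p = 0.00978). The mutant mean of *Stab2* in LECs was 30.7 ± 15.6 CPM (SD, n = 5) against 11.6 and 2.69 CPM in the controls (log2 difference 2.12, SE 0.75; adjusted p = 0.166, edgeR), and mutant 2 lay below control 1. *Stab1* was 788 ± 176 CPM in mutants against 918 and 1667 CPM (-0.66, SE 0.24; adjusted p = 0.181), with mutant 5 above control 1. *Lyve1* (-0.18, 95% interval -0.73 to 0.37), *Mrc1* (-0.21, -0.77 to 0.35), *Colec12* (-0.19, -0.85 to 0.47) and *Clec14a* (-0.38, -1.08 to 0.32) had log2 differences with intervals on both sides of 0, as did *Scarb1* (-0.74, -1.63 to 0.15). *Cd44* had a difference close in size to that of *Stab2* and a wider interval (1.98, -0.30 to 4.27).

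Since more mutant LECs were *Ptx3*-high, the genotypes were also compared on each side of the limit. In *Ptx3*-high LECs 1 of 8 receptors passed, *Stab1*, where 4.99% of 16749 genes passed, 2.99% higher and 2.0% lower. It was at 691, 752, 764, 611 and 1072 CPM in mutants 1 to 5 and at 1652 and 1934 CPM in controls 1 and 2. All 5 mutants lay below both controls, as they did for 11.6% of all genes tested, and the log2 difference was -1.20 (SE 0.19; adjusted p = 0.0135, edgeR). Mutant 5, from the same series of plate numbers as the controls, had the highest mutant level. With the series as a block the difference was -0.78 (adjusted p = 0.206), and with equal cell numbers, which leaves as many cells in each mouse as in control 1, it was -1.04 (0.0688).

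Of the uncalled receptors of the *Ptx3*-high LECs, *Mrc1*, *Colec12*, *Scarb1*, *Lyve1* and *Stab2* had lower fitted levels in mutants and *Clec14a* and *Cd44* higher ones. *Mrc1* was 143 ± 36.6 CPM (SD, n = 5) against 351 and 182 CPM in the controls (log2 difference -0.92; adjusted p = 0.151, edgeR), *Colec12* 60.7 ± 14.1 against 147 and 95.4 CPM (-1.02; 0.105) and *Scarb1* 27.0–51.0 against 111 and 62.2 CPM (-1.06; 0.128). In each of these, and in *Lyve1* (-0.43; 0.204), every mutant lay below both controls. Of all genes tested, 11.6% showed this order, and 17.1% had every mutant above both controls. The marker values stood apart by genotype here as well: 13 defining markers of other cell types summed to 135–366 CPM in mutant and 746–771 CPM in control *Ptx3*-high LECs, and fibroblast genes to 9.82–148 and 276–773 CPM. Without the cells that carried such markers, which left 7 cells of control 1, *Stab1* differed by -1.49 (adjusted p = 0.00753) and *Colec12* by 0.063 (0.949). Without control 2, which leaves the 12 cells of control 1 as the only control, *Mrc1* (-1.36; 0.0263), *Colec12* (-1.35; 0.0228) and *Scarb1* (-1.47; 0.0197) were called lower and *Clec14a* (2.11; 0.0227) higher. *Stab2* reversed from -0.35 to 2.70 when control 1 was left out.

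In the other LECs 0 of 8 receptors passed edgeR's test, where 0.0536% of 18659 genes did, 0.0375% higher and 0.0161% lower. At an unadjusted p under 0.05 there were 3, *Cd44*, *Mrc1* and *Stab1*, and DESeq2 called 1, *Cd44*. *Cd44* was at 19.3, 26.9, 8.40, 37.1 and 40.9 CPM in mutants and 1.25 and 6.78 CPM in controls, without overlap (log2 difference 2.78, SE 0.83; adjusted p = 0.207, edgeR). *Mrc1* was 35.0–52.6 CPM in mutants and 95.2 and 54.6 CPM in controls, also without overlap (-0.70, SE 0.28; adjusted p = 0.331), an arrangement that 9.28% of genes showed upwards and 9.73% downwards.

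In BECs 1 of 8 receptors passed, *Clec14a*, where 2.12% of 19308 genes passed, 1.51% higher and 0.611% lower. Its level was 670.4, 732, 763, 881 and 822 CPM in mutants 1 to 5 against 356 and 259 CPM in controls 1 and 2. Every mutant lay well above both controls, an order that 12.2% of genes showed, and the log2 difference was 1.39 (SE 0.17; adjusted p = 0.00935, edgeR). In all, 16 of 18 alternatives called it, with differences from 1.17 to 1.65. Within the one series of plate numbers that holds both genotypes, mutant 5 had 822 CPM against 356 and 259 CPM, and the fit with series as a block gave 1.44 (adjusted p = 0.0730).

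At a limit of 100 CPM, the rise of *Clec14a* was clearer in the share of BECs that reached it than in the level within those cells. This depends on the limit: at least 1 read was found in 1135 of 1174 mutant and 263 of 316 control BECs. Among the cells with a read the median was 640 CPM in mutants and 111 CPM in controls. Cells at 100 CPM or more made up 74.3% ± 4.14 of BECs in mutants (SD, n = 5; 69.4–79.9%) and 39.6 and 44.6% in controls 1 and 2. Within these cells the level was 988 ± 89.7 CPM in mutants, 871 CPM at the lowest in mutant 2, and 512 and 841 CPM in the controls. The median BEC held 607 CPM in mutants and 22.4 CPM in controls. *Stab1* had a like shift in the share of BECs at 100 CPM, 59.6% ± 5.12 in mutants against 38.4 and 49.0%, with 569 ± 114 CPM against 591 and 624 CPM in those cells, and the summed level was uncalled (log2 difference 0.38, SE 0.26; adjusted p = 0.445, edgeR). These shares and the levels within those cells are given as descriptions, with no test.

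Markers of other cell types moved with genotype in the BEC class. Fibroblast genes, 5 in number, summed to 12.8–43.4 CPM in mutant and 575–790 CPM in control BECs, and 5 mural genes to 33.8–208 and 293–667 CPM, with every listed gene above 0 in each genotype. Their part in the *Clec14a* difference was not tested, except that the cells with 300 CPM or more of the 13 defining markers were left out. This kept 61 of 159 BECs of control 1 and 113 of 157 of control 2, and the difference was then 1.29 on the log2 scale (adjusted p = 0.0159, edgeR). *Cd44* in BECs was 39.1 ± 12.7 CPM in mutants (SD, n = 5) against 56.4 and 73.8 CPM (log2 difference -0.67; adjusted p = 0.265). *Scarb1* in BECs had the narrowest interval of the 8 receptors there, -0.43 to 0.12 around -0.16 on the log2 scale.

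**Figure D4:**
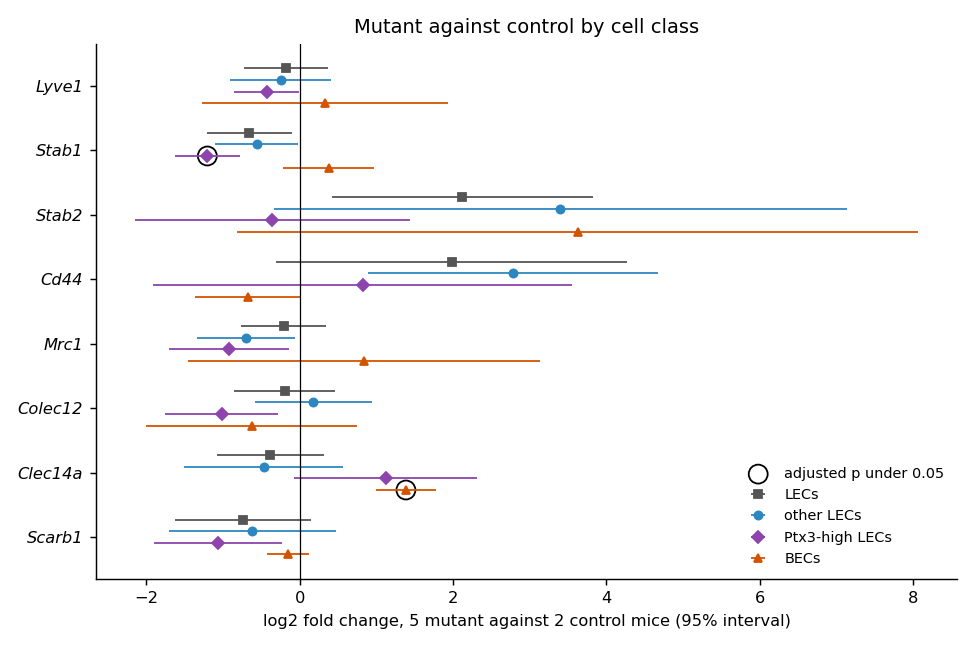
Log2 fold change of each receptor in 5 mutant against 2 control mice with its 95% interval, for all LECs (grey squares), other LECs (blue circles), *Ptx3*-high LECs (purple diamonds) and BECs (orange triangles). The 2 ringed values passed at an adjusted p under 0.05: *Stab1* in *Ptx3*-high LECs (-1.20) and *Clec14a* in BECs (1.39).

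**Figure D5:**
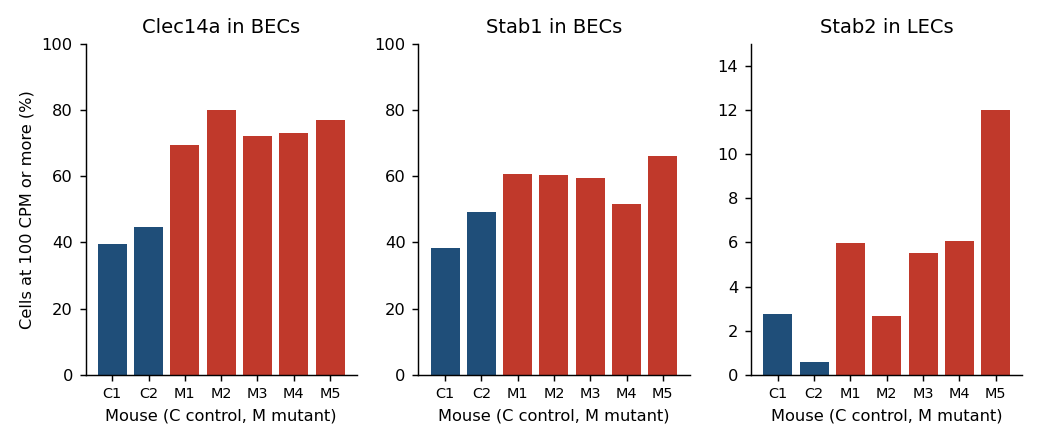
Percent of cells at 100 CPM or more, 1 bar per mouse (C control, M mutant), for *Clec14a* and *Stab1* in BECs and *Stab2* in LECs; the third panel has a shorter axis. All mutant bars of *Clec14a* (69.4–79.9%) stand above the control bars (39.6 and 44.6%).

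Whether the mutation acted differently in the 2 vessel types was tested directly. Of 9 receptors tested, *Msr1* now among them (2.64, SE 3.44; adjusted p = 0.877, edgeR), 0 passed, where 0.187% of 21926 genes did, 0.0319% higher and 0.155% lower. At an unadjusted p under 0.05 there were 3, *Clec14a*, *Stab1* and *Cd44*, and DESeq2 called the same 3. The mutant effect of *Clec14a* was lower in LECs than in BECs by 1.73 on the log2 scale (-1.73, SE 0.27; adjusted p = 0.0726, edgeR), that of *Stab1* differed by -1.04 (SE 0.17; 0.0779), and that of *Cd44* by 3.16 (SE 0.95; 0.257). The contrast between *Ptx3*-high and other LECs was compared between genotypes in the same way, and 0 of 9 receptors passed, where 0.0202% of 19758 genes did, 0.0101% in each direction. At an unadjusted p under 0.05 there were 3, *Stab2* (-3.19, SE 0.90; adjusted p = 0.237), *Stab1* (-0.70, SE 0.18; 0.194) and *Colec12* (-1.21, SE 0.33; 0.224), and DESeq2 called these 3. *Mrc1*, the receptor most firmly tied to *Ptx3*, had a difference of -0.23 between genotypes (95% interval -0.78 to 0.33).

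Of the related genes, several were called between genotypes. Among genes of hyaluronan turnover, *Vcan* was higher in mutant BECs, at 47.2–79.5 CPM against 4.02 and 4.09 CPM (log2 difference 4.08, SE 0.33; adjusted p = 0.00429, edgeR), and so was *Itih5*, at 553 ± 101 CPM (SD, n = 5) against 263 and 281 CPM (1.09, SE 0.21; adjusted p = 0.0381), the 2 calls among 16 tested. *Cemip*, a hyaluronan-degrading protein, was the 1 call of 19 in LECs, at the low level of 1.12–4.64 CPM against 0.0179 and 0.0653 CPM (adjusted p = 0.0439), and *Hmmr*, a hyaluronan-binding protein of the mitotic spindle, the 1 call of 15 in *Ptx3*-high LECs, at 26.3–62.6 CPM against 1.49 and 1.71 CPM (adjusted p = 0.00981). Cycling cells, those with 100 CPM or more of summed cell-cycle genes, were unevenly spread there. Leaving them out kept 37 of 62, 31 of 62, 85 of 126, 49 of 76 and 103 of 162 *Ptx3*-high LECs in mutants 1 to 5. In controls 1 and 2 it kept 9 of 12 and 39 of 44. Their part in the *Hmmr* difference was not tested. In the lectin list, *Thbd*, which encodes thrombomodulin, was higher in mutant LECs (706 ± 84.2 CPM against 163 and 231 CPM; log2 difference 1.88, SE 0.20; adjusted p = 0.00623), and its mutant effect differed between LECs and BECs (2.17, SE 0.29; adjusted p = 0.0465). *Cd34*, in that list though no lectin, was higher in mutant LECs too, at 355–624 CPM against 29.4 and 70.2 CPM (3.22, SE 0.43; adjusted p = 0.0134).

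In *Ptx3*-high LECs *Cd34* was at 565–813 CPM in mutants and 8.79 and 20.5 CPM in controls (5.62, SE 0.44; adjusted p = 0.00280), and its *Ptx3* contrast differed between genotypes (3.36, SE 0.25; adjusted p = 0.00680). The scavenger receptor *Cd36* was lower there, at 5.10–12.0 CPM in mutants against 56.0 and 126 CPM (-3.36, SE 0.48; adjusted p = 0.0112). *Cd68*, a lysosomal scavenger receptor also counted among the macrophage genes above, was at 15.8–47.6 CPM in mutants and 0 and 0.119 CPM in controls (adjusted p = 0.00767), and the lipoprotein receptor gene *Lrp8* at 4.16–16.5 CPM in mutants with no read in either control (adjusted p = 0.0208). No fold is given for *Lrp8*, as both controls were at 0. Between mutant and control LECs the median log2 difference was 0.41 in the hyaluronan list, 0.16 in the scavenger receptors and -0.33 in the lectin list, beside -0.0075 over all genes. In BECs edgeR called 0 of 20 scavenger receptors and 0 of 9 genes of the lectin list, where 8 and 2 had an unadjusted p under 0.05 and DESeq2 called 7 and 1.

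Levels in single cells showed how unevenly the receptors were spread. *Lyve1* was at a median of 2100.2 CPM per LEC in mutants and 2337 CPM in controls, and the LECs in the top 10% for *Lyve1* held 24.4 and 25.3% of its summed CPM. For *Mrc1* the top 10% held 70.0% in mutants and 74.7% in controls, and for *Stab2* 95.3% in mutants. *Stab2* reached 100 CPM in 5, 1, 11, 5, 20, 11 and 44 LECs of controls 1 and 2 and mutants 1 to 5, which is 2.73 and 0.571% of LECs in the controls and 2.67–12.0% in the 5 mutants, so that control 1 lies within their range. *Cd44* was just as uneven, with 97.5% of its CPM in the top 10% of mutant LECs and 4.47% ± 2.84 of them at 100 CPM or more. *Mrc1* reached 100 CPM in 36.6% ± 7.27 of *Ptx3*-high and 11.6% ± 3.38 of other LECs in mutants, and in 66.7 and 38.6% against 15.2 and 17.6% in controls.

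LECs were also split at 500 CPM of *Lyve1*, 1274 above and 367 below. *Mrc1* was higher in the cells above that limit in 7 of 7 mice, at a median over mice of 117 against 20.0 CPM. *Colec12* was lower in them in 7 of 7, at 79.5 against 158 CPM. *Stab1* did not follow *Lyve1*, with medians of 759 and 769 CPM and 5 of 7 mice higher. In BECs split at 100 CPM of *Clec14a*, *Lyve1* was lower in the cells above that limit in 7 of 7 mice (33.3 against 105 CPM). *Cd44* was lower in them in 6 of 7 (16.5 against 79.4 CPM), while *Scarb1* was at 2140 against 2179 CPM. The LECs above 500 CPM of *Lyve1* had median depths of 276421–497378 reads per cell and those below it 266158–421047. No test was made of these splits.

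The genes most like each receptor were ranked by Pearson's r of log2 levels over 21 sums, the BECs, *Ptx3*-high LECs and other LECs of 7 mice, among 10803 genes. The sums of a mouse share plates and LECs differ from BECs throughout, so the values are a description. *Lyve1* was most like *Lrrn4cl*, *Maf* and *Pard6g* (r = 0.98 for each), *Mrc1* like *Serpina3n*, *Kctd12* and *Kcnn3* (0.97, 0.96, 0.96), *Stab2* like *Clgn*, *Bean1* and *Rem1* (0.95, 0.92, 0.90) and *Stab1* like *Hyi*, *Aprt* and *Cd63* (0.92 each). *Colec12* was most like *Cyfip2*, *Fgl2* and *Gpm6a* (0.98, 0.96, 0.96). On the side of BECs, *Scarb1* was most like *Dusp26*, *Abcb1a* and *Ly6c1* (0.99 each) and *Clec14a* like the venular adhesion genes *Selp* and *Sele* and the TNF receptor gene *Tnfrsf1a* (0.97, 0.97, 0.96). *Cd44* had the weakest likeness, to *Rilp*, *Dgkh* and *Mfsd14a* (0.83, 0.81, 0.80). Among the receptors, *Lyve1* and *Mrc1* were the most alike (r = 0.94) and *Lyve1* and *Scarb1* the most opposed (-0.95).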

How the data were processed

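Single ear-skin endothelial cells sorted by FACS (Podoplanin, CD31; CD45, CD11b, Ter119 and dead cells excluded) had been sequenced with Smart-Seq2, which uses no UMIs and does not keep strand. Per the methods and processing notes, the authors aligned reads to GRCm38 plus chicken *PIK3CA* (TopHat 2.1.1), removed duplicates (SAMtools 0.1.18) and counted reads on exons with featureCounts. The deposited values are raw read counts per gene and well in 9 plates (46517 Ensembl genes and 92 ERCC rows, the latter with 0.422% of reads and left out). The annotation version is not given in the sources used here, and no value of the transgene was used here.

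A well entered the sums if it had 200 genes or more, 50000 reads or more, and a mitochondrial share of 10% or less. No doublet caller was run; 1048 of 1641 LECs and 153 of 1490 BECs had both marker sums at 300 CPM or more. Counts were summed per mouse and class (at least 5 cells), with both plates of mutants 3 and 5 joined. The smallest sum, *Ptx3*-high LECs of control 1, held 4098711 reads. edgeR 4.0.16 (R 4.3.3; filterByExpr, TMM, quasi-likelihood F-test, two-sided, Benjamini-Hochberg over all genes tested, call at 0.05) compared classes with the mouse as a block and genotypes without one. The 7 gating genes were left out of the tests. The log2 values are fitted fold changes, SEs were derived from the F statistic, and CPM are reads of a gene per 1000000 gene reads of the summed cells. The exact permutation test covered all splits of the mice. Fits were tested on simulated data. Alternatives were DESeq2 1.42.0, other normalization, filters, depths, gates, limits, blocks, single plates, and each mouse left out. Replicate numbers did not pair mutants with controls. P-values measure the spread between mice, and counting intervals cover counting error only.

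The 10 receptors, the 4 gene lists and the rule for named genes were chosen with earlier results of these data known. The rule named the receptors, the called genes of each list with the 3 largest fold changes per comparison, and the 3 genes most like each receptor by Pearson's r of log2(CPM + 1), among genes with a mean of at least 8 CPM. *Thbd* in *Ptx3*-high LECs and other called genes not named are in the counts only.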

Additional observations from a re-analysis of the deposited data

Results flagged for a closer look

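Dixon's test at the 95% level was applied to each receptor's level in the 5 mutants of each cell class, 32 groups in all, of which 6 had 1 mouse far from the other 4. Chance gives about 1 in 20 such groups. The groups are not independent, since the LEC sums hold the *Ptx3*-high and the other LECs, so the number flagged was not compared with that share. Mutant 5 had the most *Stab1* both in LECs (1096 CPM) and in the other LECs (1119 CPM), and the most *Stab2* in the other LECs (36.0 CPM). In BECs *Stab2* was at 3.67 CPM in mutant 1 and *Mrc1* at 5.82 CPM in mutant 2, both low levels. *Clec14a* was lowest in the other LECs of mutant 4 (12.7 CPM). Mutant 5 is the 1 mutant from the series of plate numbers that also holds the controls, and the part of the plates in its values was not tested.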

How the results depend on the processing

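Of the receptor values recomputed under the alternatives, 1111 kept their direction and side of the threshold, 17 kept only the direction and lost the call, 23 gained a call and 56 changed sign. Every sign change was in a receptor that had no call in that comparison, and the 7 calls between LECs and BECs held under all 17 alternatives. *Mrc1* in *Ptx3*-high LECs held under all 20, *Stab2* under 18 (lost without mutant 1 and without the mouse as a block, adjusted p = 0.130), *Lyve1* under 11, *Clec14a* in BECs under 16 of 18 and *Stab1* in *Ptx3*-high LECs under 17 of 21. The causes were not tested. Thinning every cell to 50000 reads gave 943 called genes for genotype in *Ptx3*-high LECs beside 836 at full depth, and control 1 gave 12 cells there.

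The numbers of called genes moved more. DESeq2 called 1727 genes for the *Ptx3* contrast, and for genotype 2470 in LECs, 2235 in BECs, 1186 in other LECs and 2924 in *Ptx3*-high LECs, beside 1242 for genotype by vessel type and 1341 for genotype by *Ptx3*. For the *Ptx3* contrast the count was 192 with equal cell numbers, 137 with a 10-fold gate, 263 without cells with other markers, 238 without cycling cells and 163–829 with a mouse left out, highest without control 1. For genotype in LECs it was 344 with the 10-fold gate, 37 without cycling cells, 177 with the plate series as a block and 153–546 with a mouse left out. In BECs it was 54 with the series block and 159–585 with a mouse left out. In other LECs it was 1 with the 10-fold gate, 41 without cells with other markers, 0 without cycling cells, 82 at a *Ptx3* limit of 200 CPM, 1 with the series block and 0–10 with a mouse left out. In *Ptx3*-high LECs it was 56 with equal cell numbers, 101 without cycling cells, 24 with the series block and 288–4336 with a mouse left out, highest without control 2. For genotype by vessel type it was 23 with equal cell numbers, 114 without cells with other markers and 0–20 with a mouse left out. For genotype by *Ptx3* it was 10 without the count filter, 12 after thinning, 11 at 100000 reads or more, 2 with equal cell numbers, 24 without cells with other markers, 7 on first plates, 9 and 39 at *Ptx3* limits of 50 and 200 CPM, and 1–1937 with a mouse left out, highest without control 2.

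Mutants and controls share only the replicate numbers 1 and 2, whose deviations correlated at -0.0534 to 0.107, so the numbers do not pair the mice. With the replicate block 3 genes were called for genotype in LECs, 0 in BECs, 0 in other LECs and 29 in *Ptx3*-high LECs, *Clec14a* in BECs was at 1.29 (adjusted p = 0.233), *Stab1* in *Ptx3*-high LECs at -1.30 (0.152), and *Stab2* there changed sign to 0.21. Without the mouse as a block, 3595 genes were called between LECs and BECs and 129 for the *Ptx3* contrast.

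The other sign changes, as log2 differences, were as follows. For the *Ptx3* contrast *Cd44* was -1.40 with equal cell numbers, -0.20 on first plates, -0.37 at a limit of 200 CPM and -0.11 to 0.58 with a mouse left out (the sign change without control 2). *Scarb1* was 0.0239 at 100000 reads or more, 0.34 with equal cell numbers, 0.80 with the 10-fold gate, 0.0326 without cells with other markers, 0.0581 on first plates, 0.0287 without cycling cells and -0.17 to 0.11 with a mouse left out (the sign change without mutant 1 and mutant 5). For genotype in LECs *Lyve1* was 0.18 with the series block. *Mrc1* was -0.41 to 0.0531 with a mouse left out (the sign change without control 1). *Colec12* was 0.0814 without cycling cells and -0.57 to 0.35 with a mouse left out (the sign change without control 1). *Clec14a* was 0.0465 after thinning and -0.80 to 0.25 with a mouse left out (the sign change without control 1). *Scarb1* was -1.27 to 0.14 with a mouse left out (the sign change without control 1). In BECs *Lyve1* was -0.0328 after thinning, -0.46 with the 10-fold gate and -0.30 to 1.54 with a mouse left out (the sign change without control 2 and mutant 5). *Mrc1* was -0.69 with the 10-fold gate. *Colec12* was 0.0444 without cells with other markers and -1.27 to 0.59 with a mouse left out (the sign change without control 1). In other LECs *Lyve1* was 0.0893 with the series block. *Colec12* was -0.0427 with the 10-fold gate, -0.0164 on first plates, -0.37 with the series block and -0.22 to 0.75 with a mouse left out (the sign change without control 2). *Clec14a* was 0.11 with equal cell numbers, 0.0233 with the 10-fold gate and -0.88 to 0.12 with a mouse left out (the sign change without control 1). *Scarb1* was -1.20 to 0.39 with a mouse left out (the sign change without control 1). In *Ptx3*-high LECs *Stab2* was -1.26 to 2.70 with a mouse left out (the sign change without control 1). *Cd44* was -0.57 without cycling cells and -0.0862 to 4.57 with a mouse left out (the sign change without control 1). *Colec12* was 0.0629 without cells with other markers. *Clec14a* was -0.48 with equal cell numbers. For genotype by vessel type *Lyve1* was 0.31 with the 10-fold gate and -1.43 to 0.23 with a mouse left out (the sign change without control 2). *Stab2* was 0.60 with the 10-fold gate, 0.059 on first plates and -0.94 to 0.44 with a mouse left out (the sign change without mutant 1). *Mrc1* was 0.15 with the 10-fold gate. *Colec12* was -0.83 without cells with other markers and -0.19 to 0.79 with a mouse left out (the sign change without control 1). *Scarb1* was 0.12 with the 10-fold gate and -1.16 to 0.13 with a mouse left out (the sign change without control 1). For genotype by *Ptx3* *Lyve1* was 0.0832 with equal cell numbers. *Cd44* was 0.98 with equal cell numbers. *Mrc1* was 0.48 with equal cell numbers. *Clec14a* was -0.21 with equal cell numbers and -0.69 with the 10-fold gate.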
